A study of Sus scrofa with 12 samples.

Results

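Chromatin modifier and remodeler genes were followed in the messenger RNA of porcine mesenchymal stromal/stem cells (MSCs) and of the extracellular vesicles (EVs) that these cells release. Members were all entries of the mRNA count table whose gene symbol starts with one of these family names: KMT, KDM, SMARC, CHD, ARID, HDAC, SETD, BRD, SIRT, KAT, ASXL, DNMT and TET, each followed by a member's number or letters. Of 29658 entries, carrying 13363 distinct symbols, 110 entries with 95 symbols matched, and the entry with the most reads stood for each symbol. The donors were 3 female domestic pigs aged 3 months, and collagenase digestion of their abdominal fat gave the MSCs, which were expanded with platelet lysate and taken at passage 3. EVs were collected by ultracentrifugation from the supernatants of the same animals' MSCs, so that each pig gave 1 MSC and 1 EV library and replicates 1 to 3 are the same pigs in both groups. No treatment or genetic change separated the groups, and each EV library is a bulk preparation of all vesicles pelleted together.

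Chromatin modifiers place or remove methyl and acetyl groups on histone tails or on cytosine in DNA, and remodelers use ATP to slide, eject or exchange nucleosomes. Acetylation by KAT enzymes and its removal by HDACs and sirtuins, methylation by KMT and SETD enzymes and its removal by KDMs, and cytosine methylation by DNMTs with its oxidation by TETs form opposing pairs, and ATPases of the SWI/SNF and CHD families act on the nucleosomes themselves. In MSCs these proteins are known for their part in lineage choice, including adipogenic and osteogenic differentiation. Their messages are often long, so gene length was also considered.

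The 6 libraries held between 10429085 and 12276855 reads on genes, and members took 0.645%, 0.524% and 0.574% of the reads in MSC replicates 1 to 3 and 0.771%, 0.793% and 0.619% in EV replicates 1 to 3. The shares of EV replicates 1 and 2 lay above all MSC shares, and that of EV replicate 3 lay below MSC replicate 1. Of the MSC markers, CD44, NT5E (CD73), ENG (CD105) and PDGFRB were detected in every library, whereas THY1 (CD90) and COL1A2 were listed at 0 reads throughout. Of the leukocyte and macrophage markers, PTPRC had at most 10 reads in any library, CSF1R at most 9 and AIF1 0. CD14 had 588, 469 and 549 reads in the MSC libraries and 667, 771 and 416 in the EV libraries. CD68 had 18 to 56 reads. The endothelial marker PECAM1 had 215, 111 and 114 reads in the MSC libraries and 78, 20 and 31 in the EV libraries (log2 fold change −1.71, adjusted p = 0.249, edgeR with Benjamini-Hochberg adjustment), with VWF at 0 reads and KDR at no more than 1. The summed level of the 3 endothelial markers with an entry was 9.67 to 16.7 CPM (reads scaled to a common library size) in MSCs and 1.64 to 6.59 in EVs. That of the 5 leukocyte and macrophage markers was 48.7 to 51.1 CPM in MSCs and 45.2 to 63.7 in EVs. The study reported the cells negative for the markers CD31 (PECAM1), CD14 and CD45 (PTPRC), whereas the values here are RNA reads. The part of endothelial or of leukocyte and macrophage RNA in the results below was not tested. In such bulk libraries, fewer cells or vesicles of a type and less RNA in each cannot be told apart.

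Of the 95 members, 80 had enough reads to be tested and 15 did not. Of the untested members, 9 were at 0 reads in all libraries. HDAC6, HDAC8, KDM6A and SMARCA1 (4 of these 9) lay on a sequence named X without the prefix carried by the others, and none of the 1170 entries on sequences named in that way held a read, so their 0 says nothing about expression. ARID4A, KAT7, KAT8, SIRT4 and SMARCD2 (5 of these 9) each had another entry over at least 0.9 of their span. Among the 6 untested members with reads, DNMT1 (2 reads in all) and DNMT3A (4 reads in all), the maintenance and a de novo DNA methyltransferase, were each covered by a second entry of the same symbol, so their low counts cannot be read as low levels. HDAC11 had 15, 10 and 8 reads in the MSC libraries and 7, 11 and 5 in the EV libraries. HDAC9, a class IIa deacetylase, had 0, 0 and 3 reads in the MSC libraries and 2, 23 and 6 in the EV libraries, most of them in a single EV library. ARID3C had 9, 4 and 7 reads in the MSC libraries and 2, 3 and 0 in the EV libraries, and its entry is covered in full by that of UBAP1. ASXL3 had 8 reads in all. A further 14 members were tested although another entry covers at least 0.9 of their span, and their values are uncertain for that reason: ARID1A, BRD2, CHD4, HDAC3, HDAC4, KDM1A, KDM1B, KMT2B, SETD6, SIRT2, SIRT3, SIRT5, SIRT6 and SMARCC2.

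Per kilobase of the deposited gene length, the tested members had a median level of 10.7 CPM per kb in MSCs, with a range of 0.612 to 137, and of 13.1 CPM per kb in EVs, with a range of 0.523 to 138. The median over all 12392 entries tested was 9.04 CPM per kb in MSCs and 9.69 in EVs. CHD3, an ATPase of the NuRD remodeling and deacetylase complex, had the highest level per kb of all members in both groups, at 137 ± 25.5 CPM per kb in MSCs and 138 ± 32.4 in EVs (SD, n = 3). It was followed in MSCs by SMARCB1, a core SWI/SNF subunit (97.5 CPM per kb), the class IIa deacetylases HDAC5 (84.3) and HDAC7 (83.4), and CHD4, the other main NuRD ATPase (55.2). In EVs the next ranks were held by HDAC5 (77.7 CPM per kb), CHD4 (74.8), HDAC7 (71.5) and SMARCA5, the ISWI ATPase (69.1), with SMARCB1 at 57.6. With SDs of 16.5 CPM per kb for SMARCB1 and 31.1 for HDAC5 in MSCs, these neighbours in the order did not differ beyond their spread. The order of the members was largely shared by both groups (Spearman's rho 0.92 across 80 genes, which are not independent replicates).

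The comparison of EVs with MSCs asked which of these messages were enriched in or depleted from the vesicles. With the thresholds of the study, a fold change above 2 and an unadjusted p below 0.05, 11 of the 80 tested members (13.8%) were higher in EVs, where 5.55% of all entries tested were. In the opposite direction 1 member was lower in EVs, where 3.57% of all entries were. No member passed an adjusted p of 0.05 when edgeR quasi-likelihood p-values were adjusted by Benjamini-Hochberg over all entries, and neither did any other entry (0% in both directions): the lowest adjusted p was 0.206 among members and 0.129 among all entries. At an unadjusted p below 0.05 regardless of fold, 23 members were found (16% of all entries). DESeq2, run as an alternative, placed 6 members (CHD7, KDM7A, KMT2A, KMT2C, KMT2E and TET1) higher and DNMT3L lower at an adjusted p below 0.05, where it called 1.82% of all entries higher and 1.4% lower. All statements of higher or lower below that rest on the unadjusted p are therefore short of a call corrected for the number of genes.

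The 80 members had a median log2 fold change of 0.23 (EVs over MSCs), and 48 were above 0, beside a median of −0.02 and a share of 49.1% above 0 for all entries. Per pig, the median difference of the members was 0.15, 0.38 and 0.16, positive in all 3 animals. The EV value was above the MSC value in every pig for 31 members (22.6% of all entries) and below it in every pig for 12 (24.3%). In 27 members every EV library lay above every MSC library (14.3% of all entries), and in 6 members (DNMT3L, SETD3, SIRT3, SIRT5, SMARCB1 and SMARCD1) every EV library lay below (13.6% of all entries). In the plot of tested members by role, 9 of 13 methyltransferases, 10 of 14 demethylases and 8 of 9 CHD remodelers lay above 0, as did 4 of 13 deacetylases and sirtuins. Differences between roles were not tested.

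**Figure D1:**
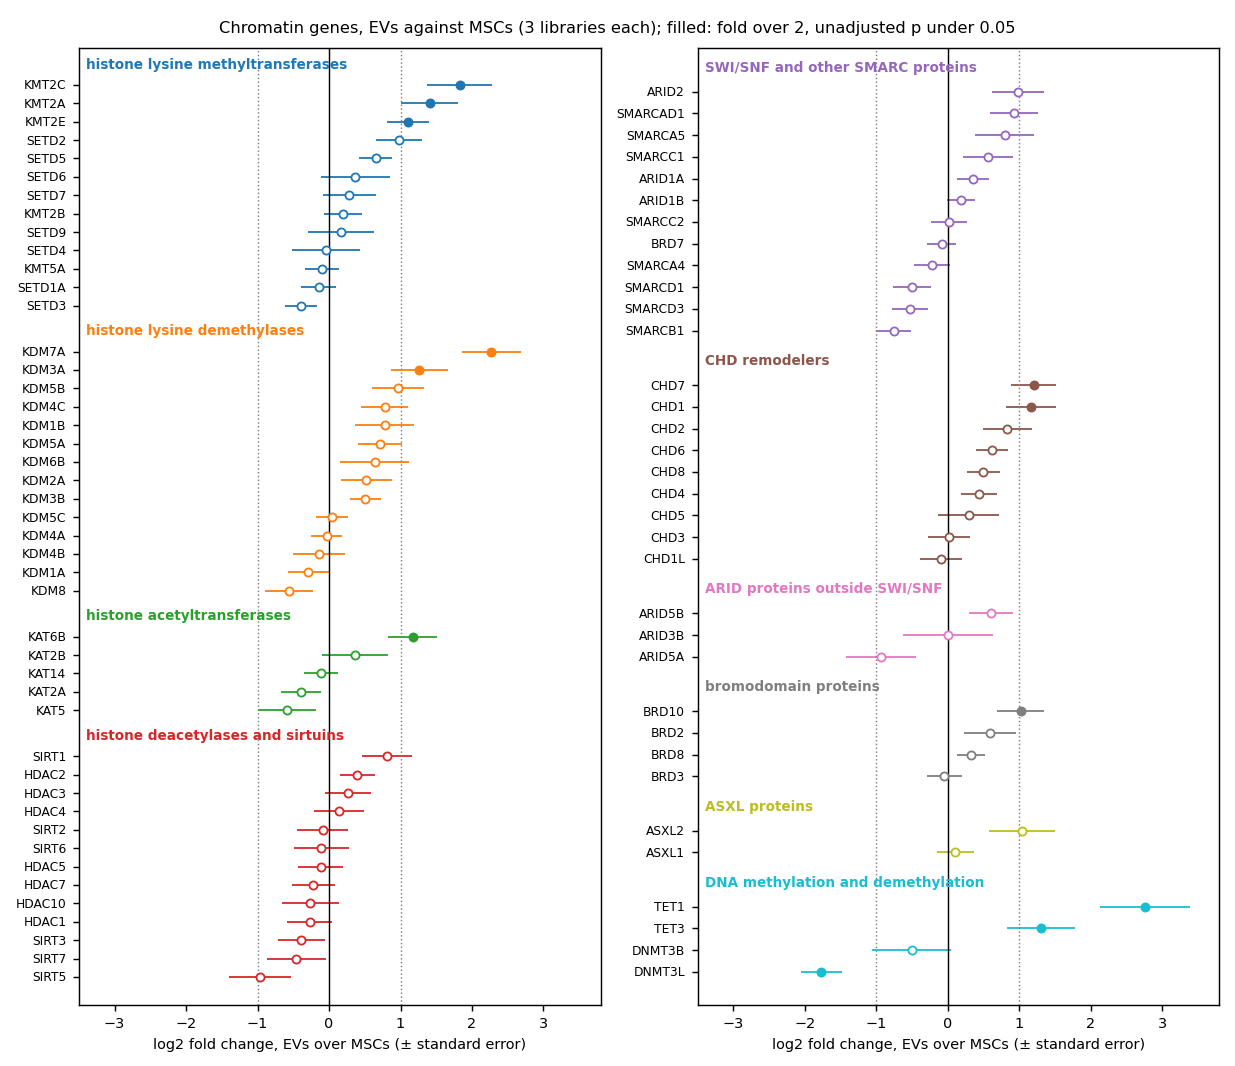
Log2 fold change (EVs over MSCs, horizontal axis) with its standard error for 79 of the 80 tested members, grouped by role and ordered within each role. Filled points passed a fold change of 2 with an unadjusted p below 0.05 (11 higher, 1 lower), and dotted lines mark a fold of 2.

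Histone lysine methyltransferases were led by 3 members of the KMT2 family, which act on lysine 4 of histone H3 or belong to that family by sequence. Of 13 tested members 9 had a positive log2 fold change (49.1% of all entries) and 3 were higher in EVs (5.55% of all entries). The group median was 0.28, or 0.17 with the length trend removed. Their median deposited length was 5306 bases, and 59.6% of all entries of 4 to 6 kb were above 0. KMT2C, the catalytic subunit of a COMPASS-like complex that works at enhancers, had 17.2, 4.98 and 11.8 CPM in MSCs and 30.6, 45.1 and 45.1 in EVs. Every EV library lay above every MSC library, and the lowest value was that of MSC replicate 2. The log2 fold change was 1.83 ± 0.45 (SE), a 3.55-fold difference (adjusted p = 0.219). The entry lies on chromosome 18, from 5538430 to 5550748 (susScr3), and its 4716 bases are shorter than the long message this gene is known for.

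KMT2A, founding member of the mixed-lineage leukaemia methyltransferases, had 53.4, 18.3 and 29.9 CPM in MSCs and 72.9, 96.7 and 100.1 in EVs (log2 fold change 1.41 ± 0.40, adjusted p = 0.231). Its groups did not overlap either. KMT2E, a trithorax-related reader of methylated histone H3, had the highest level per kb of the tested KMT2 genes in both groups, with 169.8, 98.3 and 143 CPM in MSCs and 246, 369 and 271 in EVs (log2 fold change 1.11 ± 0.30, adjusted p = 0.222). Without MSC replicate 2 or without EV replicate 2 KMT2E no longer passed the fold threshold (0.92 and 0.93). SETD2, which trimethylates lysine 36 of histone H3 along transcribed genes, was just short of a 2-fold change at 0.98 (adjusted p = 0.254). The other KMT2 member tested, KMT2B, was at 0.19 ± 0.26, and its entry is overlapped by another over at least 0.9 of its span. At the lower end, SETD3, which methylates actin, had 66.8, 91.6 and 65.1 CPM in MSCs and 56.8, 56.9 and 56.2 in EVs, all EV values being lower, with a log2 fold change of −0.40 (adjusted p = 0.391) that did not pass the test.

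Histone lysine demethylases showed the largest group median among the families with 10 or more tested members (0.58). Of 14 tested, 10 were positive (49.1% of all entries) and 2 were higher in EVs (5.55% of all entries). With the length trend removed the group median was 0.27. The median deposited length of the tested demethylases was 4057 bases. KDM7A, a Jumonji demethylase of lysines 9 and 27 of histone H3 with its entry on chromosome 18 from 10087542 to 10164670 (susScr3), had 3.1, 1.63 and 2.12 CPM in MSCs and 7.68, 14.4 and 11.2 in EVs. These levels rest on 17 to 40 reads per MSC library and 91 to 184 per EV library, and the groups were far apart. The log2 fold change was 2.27 ± 0.41 (adjusted p = 0.206), and leaving out any one library kept it between 2.06 and 2.55. KDM7A also reached an adjusted p of 0.043 when the pig was entered as a block and the length trend was removed, the only member to be called higher at that level (0.621% of all entries).

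KDM3A, which acts on lysine 9 of histone H3, had 44.8, 75.8 and 47.2 CPM in MSCs and 72.9, 130 and 199.9 in EVs, where EV replicate 1 lay below MSC replicate 2. It was the only one of the 11 higher members whose groups overlapped, although the EV value was above the MSC value in each pig (log2 fold change 1.26 ± 0.40, adjusted p = 0.249). Leaving out EV replicate 3 lowered it to 0.86, and it lost its call also without MSC replicate 1 or 3. The H3 lysine 4 demethylase KDM5B, short of the fold threshold, had 71.9, 112 and 78.5 CPM in MSCs and 99.96, 167 and 246 in EVs (0.97 ± 0.36, adjusted p = 0.277). Its X-linked relative KDM5C, more abundant than most members at 41.0 CPM per kb in MSCs, differed by 0.04 (95% interval −0.47 to 0.56), and the sign turned to −0.28 with the length trend removed. KDM6B, which removes methyl groups from lysine 27 of histone H3, had 20.8, 75.8 and 26.5 CPM in MSCs and 54.8, 77.2 and 59.8 in EVs. Its value of 0.64 (adjusted p = 0.499) was 1.44 without MSC replicate 2, whose level lay within the range of the EV libraries. On the negative side KDM8 was at −0.56 (adjusted p = 0.409) and KDM1A, the flavin-dependent demethylase LSD1, at −0.29 (adjusted p = 0.605).

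Among the genes of DNA methylation, TET1 and TET3 were higher in EVs and the cofactor DNMT3L was lower. TET1, which oxidizes 5-methylcytosine, had 8, 2 and 12 reads in the MSC libraries and 29, 70 and 47 in the EV libraries, so that the largest log2 fold change among the members (2.76 ± 0.63, adjusted p = 0.219) rested on few MSC reads. The EV libraries all lay above the MSC libraries. Its entry on chromosome 14, from 77827790 to 77828785 (susScr3), spans 996 bases that equal its length, so it is a single unspliced stretch rather than a spliced gene model. TET3 had 18.7, 6.99 and 14.1 CPM in MSCs and 19.9, 26.4 and 52 in EVs (log2 fold change 1.30 ± 0.48, adjusted p = 0.275). In pig 1 these values were nearly equal, and TET3 lost its call without MSC replicate 2 or 3 or without EV replicate 3 (0.80).

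DNMT3L, a catalytically inactive partner of the de novo methyltransferases best known from germ cells, lies on chromosome 13 from 216997925 to 217011817 (susScr3) and had 14, 19 and 18.8 CPM in MSCs and 5.15, 4.37 and 5.67 in EVs. The libraries of each group lay close together, from 181 to 222 reads in MSCs and from 56 to 61 in EVs, and the groups were well separated. It was 3.41-fold lower in EVs (log2 fold change −1.77 ± 0.29, adjusted p = 0.206), with a range of −1.90 to −1.67 when any one library was left out. With the pig as a block and the length trend removed the adjusted p was 0.0419, where 0.968% of all entries were called lower. DNMT3B, a de novo methyltransferase, had 1.27 to 4.07 CPM over the 6 libraries and a log2 fold change of −0.51 (adjusted p = 0.636).

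**Figure D2:**
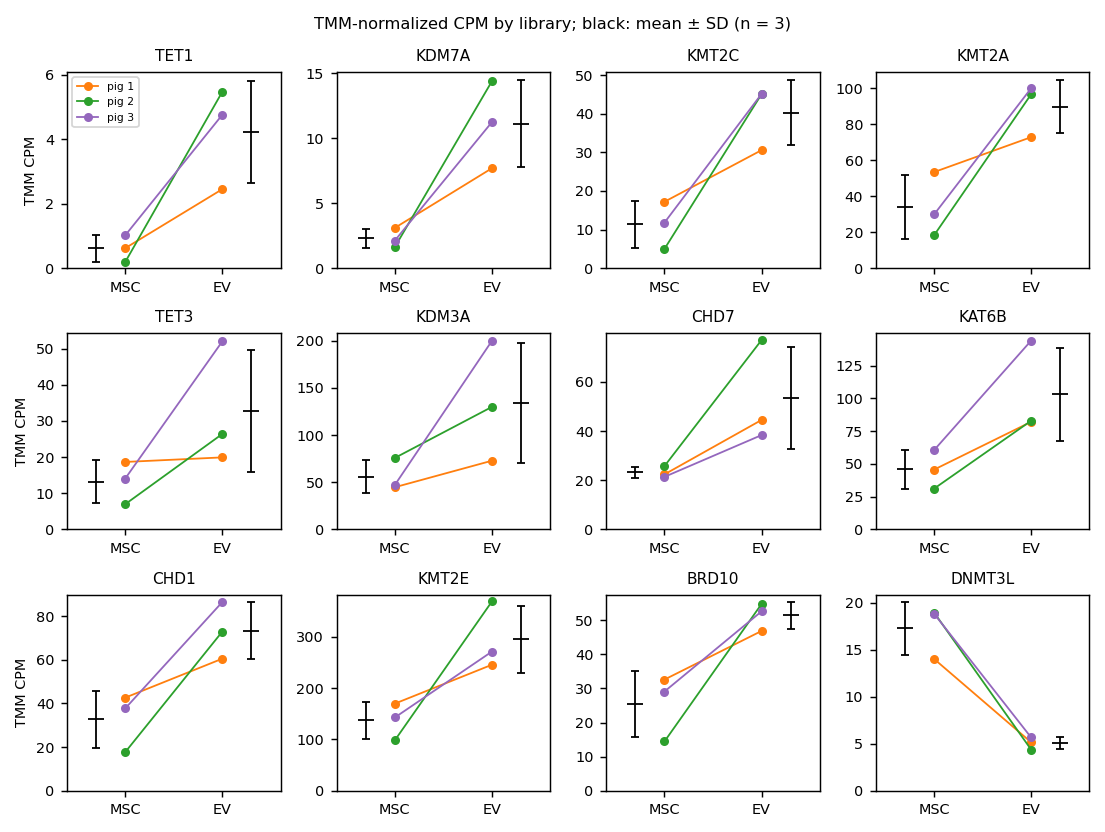
TMM-normalized CPM (vertical axis, each from 0) in MSCs and EVs for the 12 members past a fold of 2 with an unadjusted p below 0.05, with lines joining the libraries of a pig and black bars for the mean ± SD (n = 3). The EV value lies above the MSC value in every pig for the 11 higher members and below it in every pig for DNMT3L.

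CHD remodelers had 8 of 9 tested members above 0 (49.1% of all entries) and a median of 0.50. In 6 of them every EV library lay above every MSC library (14.3% of all entries). Their median deposited length was 6491 bases, and 72.5% of all entries of 6 kb or more were above 0. With the length trend removed the CHD median was 0.10. CHD7, an ATPase known for its role in neural crest and mesenchymal development, had 22.4, 25.7 and 21.4 CPM in MSCs and 44.5, 76.9 and 38.3 in EVs (log2 fold change 1.20 ± 0.31, adjusted p = 0.219). The MSC libraries lay close together (SD 2.29 CPM), and EV replicate 2 was the highest, without which the value fell to 0.84 and the call was lost. CHD1, which remodels nucleosomes in transcribed genes, had 42.7, 17.7 and 37.7 CPM in MSCs and 60.5, 73 and 86.5 in EVs (1.16 ± 0.36, adjusted p = 0.245). Its call was lost without MSC replicate 2, at 0.87. CHD2 (0.83, adjusted p = 0.298) and CHD6 (0.62, adjusted p = 0.275) passed the unadjusted p but not the fold. The NuRD ATPases were unlike in value: CHD4 was at 0.44 (adjusted p = 0.390), whereas CHD3 was at 0.02 (95% interval −0.67 to 0.71), with 698, 993 and 770.3 CPM in MSCs and 1054, 735 and 700.5 in EVs. The difference between these 2 genes was not tested.

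Histone acetyltransferases divided by member. KAT6B, a MYST-family enzyme, had 45.6, 31.1 and 60.5 CPM in MSCs and 82.1, 82.9 and 144 in EVs (log2 fold change 1.17 ± 0.34, adjusted p = 0.240), lost its call without MSC replicate 2 or EV replicate 3, and was the only one of 5 tested to pass the thresholds. KAT2A, the catalytic subunit of SAGA, was at −0.39 (adjusted p = 0.485), and KAT5, the catalytic subunit of NuA4/TIP60, at −0.59 (adjusted p = 0.468). A second entry named KAT5 covers 0.794 of the span of the one used, so the KAT5 value is uncertain. The group median was −0.12, or −0.25 with the length trend removed.

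Of 13 tested histone deacetylases and sirtuins, 9 had a negative log2 fold change and none passed the thresholds, with a median of −0.12 and a range of −0.97 to 0.81. With the length trend removed this median was −0.16. HDAC1 and HDAC2, the paired class I enzymes of NuRD, Sin3 and CoREST, were at −0.27 (95% interval −0.998 to 0.457) and 0.40 (−0.181 to 0.974). The abundant HDAC5 had 175, 289 and 147 CPM in MSCs and 162, 175 and 226 in EVs, a difference of −0.12 (95% interval −0.85 to 0.61) that turned to 0.22 without MSC replicate 2. SIRT1, the nuclear NAD-dependent deacetylase, had 13.4, 6.99 and 13.1 CPM in MSCs and 18.8, 24.4 and 15.7 in EVs. All EV values were higher, and the log2 fold change was 0.81 (adjusted p = 0.311). SIRT5, a mitochondrial desuccinylase, had lower values in EVs, with 4.18, 5.07 and 2.97 CPM in MSCs and 2.95, 1.64 and 1.62 in EVs (−0.97, adjusted p = 0.320), but its 489-base entry is covered by that of CCDC167, among others.

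SWI/SNF and other SMARC proteins had values on both sides of 0, with 7 of 12 tested members positive (49.1% of all entries) and none past the thresholds. The median was 0.10, or −0.15 with the length trend removed. ARID2, the targeting subunit of the PBAF form of SWI/SNF, had 41.1, 16.2 and 35.3 CPM in MSCs and 49.6, 67.8 and 66.3 in EVs (0.99 ± 0.36, adjusted p = 0.275). SMARCB1, present in all canonical SWI/SNF complexes, had 155, 189.98 and 136 CPM in MSCs and 103, 76.9 and 105 in EVs. Its groups did not overlap in the opposite direction, and the log2 fold change was −0.76 ± 0.24 (adjusted p = 0.251). The accessory subunits SMARCD1 (−0.50, adjusted p = 0.362) and SMARCD3 (−0.53, adjusted p = 0.338) were also negative. A second entry named SMARCD1 covers 0.899 of the span of the one used, so the SMARCD1 value is uncertain. The ATPase SMARCA4 (BRG1) was at −0.22 (95% interval −0.81 to 0.38) and the scaffold SMARCC2 at 0.01 (−0.58 to 0.60). Outside SWI/SNF, the remodeling ATPases SMARCA5 (0.79, adjusted p = 0.362) and SMARCAD1 (0.92, adjusted p = 0.275) were positive. With the pig as a block, ARID2, ASXL2, SETD2 and SMARCAD1 joined the 11 members past the fold and unadjusted p, giving 15 (8.01% of all entries), and 2 members, DNMT3L and ARID5A, were lower (5.17%). With the length trend removed as well, TET1, KDM7A, KMT2C, KMT2A and ASXL2 (5 members) were higher (7.25% of all entries) and 2 lower (5.52%).

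In the remaining families, BRD10 was the only member past the thresholds, with 32.6, 14.5 and 29.1 CPM in MSCs and 46.9, 54.8 and 52.6 in EVs (1.02 ± 0.33, adjusted p = 0.251). At the edge of the fold threshold, it lost its call without MSC replicate 2 (0.74), EV replicate 2 or EV replicate 3. BRD8, a subunit of NuA4/TIP60, was at 0.33 with all EV values above the MSC values. ASXL2, a partner of the BAP1 histone H2A deubiquitinase, had 34.6, 9.09 and 19.8 CPM in MSCs and 34.6, 51.5 and 44.6 in EVs (1.04, adjusted p = 0.319). Its relative ASXL1 was at 0.11, and at −0.30 with the length trend removed. The DNA-binding proteins ARID5A (−0.94, adjusted p = 0.364) and ARID5B (0.60, adjusted p = 0.362) had values of opposite sign and did not pass the test.

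Gene length moved with these differences. The tested members had a median deposited length of 3969.5 bases against 2020 for all entries, and 22 of 80 (27.5%) were 6 kb or longer against 5.35% of all entries. Members under 2 kb had a median log2 fold change of −0.22 (17 members), those of 2 to 4 kb −0.04 (23), those of 4 to 6 kb 0.40 (18) and those of 6 kb or more 0.64 (22). For all entries the corresponding medians were −0.11, −0.02, 0.14 and 0.35, so the medians of both sets were higher at greater length, as the plot of log2 fold change by gene length shows. Of the 22 longest members 21 were above 0 and 7 passed the thresholds, where 72.5% and 11.6% of all entries of that length did. Across genes, Spearman's rho between length and log2 fold change was 0.53 over the 80 members and 0.15 over all entries. These genes share the same 6 libraries and are not independent replicates. TET1, KDM7A, KMT2C and KMT2E were higher past the thresholds at deposited lengths below 6 kb. By bin these were 1 of 17 members under 2 kb, 1 of 23 at 2 to 4 kb and 2 of 18 at 4 to 6 kb. Of all entries, 4.76%, 5.59% and 5.96% were higher in these bins. A deposited length may fall short of the message, as for KMT2C, so TET1, KDM7A, KMT2C and KMT2E need not have short messages.

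**Figure D3:**
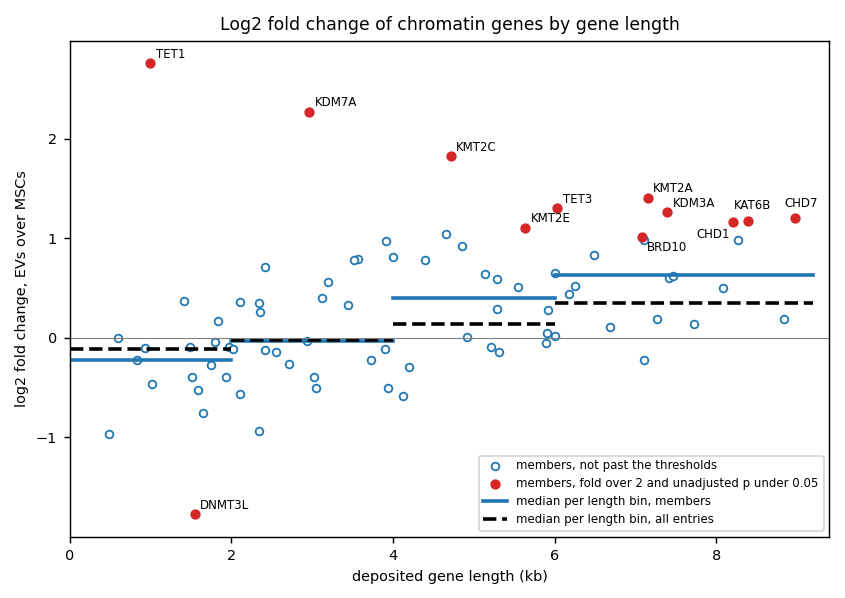
Log2 fold change (EVs over MSCs) against the deposited gene length in kb for the 80 tested members, with horizontal lines for the median in each length bin of members (solid) and of all 12392 entries (dashed). Both medians are higher at greater length, reaching 0.64 and 0.35 at 6 kb or more. By deposited length, which may fall short of the message, 4 of the 11 higher members lie below 6 kb.

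The length trend differed between libraries. Relative to the mean of the 6 libraries, members of 6 kb or more were at −0.50 in MSC replicate 2, at −0.15 and −0.29 in MSC replicates 1 and 3, and at 0.22, 0.46 and 0.49 in EV replicates 1 to 3. All entries of that length were at −0.46 in MSC replicate 2, at −0.02 and −0.10 in the other MSC libraries, and at 0.12 to 0.27 in EVs. MSC replicate 2 was thus the lowest for long genes in both sets, while members under 2 kb were at 0.58 there, the highest of the 6 libraries. It was the lowest of the 6 libraries for 32 of the 80 members (33.6% of all entries) and for 9 of the 11 higher ones. Those 11 were called for low MSC values against EV values, so an MSC library is favoured as their lowest. The matching share among all entries called higher was not computed. Without MSC replicate 2, the median of the members was 0.30 and that of the longest 0.55. In that fit 8 members were higher (4.44% of all entries) and DNMT3L was lower (3.89%). Of these 8 higher members, 6 were among the original 11, BRD10, CHD1, KAT6B, KMT2E and TET3 no longer passed, and KDM5B and KDM6B did.

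**Figure D4:**
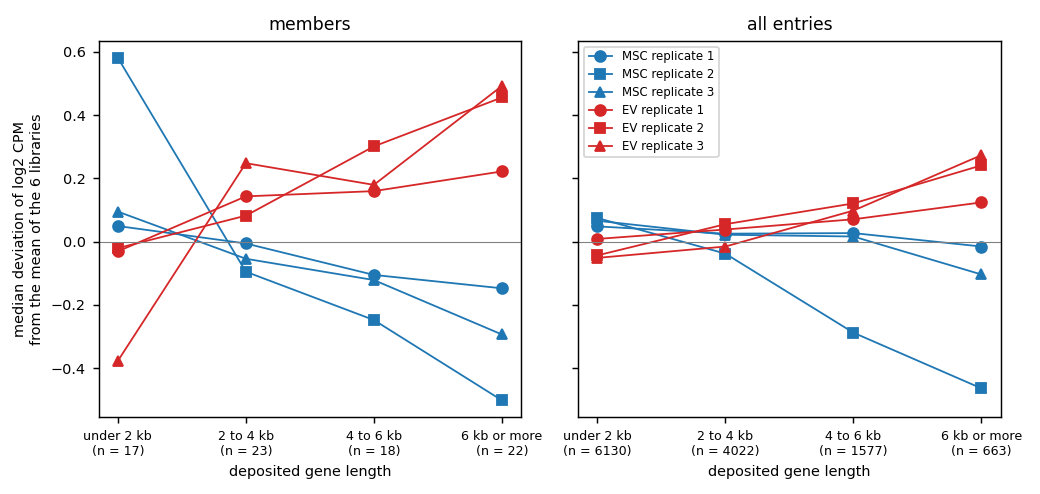
Median deviation of log2 CPM from the mean of the 6 libraries (vertical axis) by deposited gene length for the 80 tested members (left) and all 12392 entries (right), 1 line per library. MSC replicate 2 falls to −0.50 and −0.46 at 6 kb or more, and the 3 EV libraries lie above 0 there in both panels.

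When the trend of log counts on length was removed from each library, the median log2 fold change was 0.05 for the members and −0.07 for all entries, and 5 members stayed higher (5.14% of all entries): TET1, KDM7A, KMT2C, KMT2A and TET3. With the pig as a block as well, TET3 fell just below the fold threshold (0.997). The trend was removed by the deposited length, which is 996 bases for TET1, a single unspliced stretch, and 4716 for KMT2C, short for its message. For these genes that length may not be the length of the message. The deposited lengths of KDM7A (2963 bases), KMT2A (7152) and TET3 (6034) were not compared with the lengths of their messages. The values of all 5 genes after removal therefore do not settle whether they depend on length. With the trend removed and MSC replicate 2 left out, a setting added after seeing the data, 6 members were higher: TET1, KDM7A, KMT2C and KDM3A (4 of the original 11), and KDM5B and KDM6B. The share of all entries was not computed for that setting, so this count cannot be set against a background. With the trend removed and all 6 libraries kept, DNMT3L remained lower at −1.72, the only member to be called so (3.89% of all entries). In that 6-library fit members of 6 kb or more kept a median of 0.29, with all entries of that length at −0.04. The values of CHD7, CHD1, KAT6B, KDM3A, KMT2E and BRD10 fell there to between 0.65 and 0.86. In the same fit the sign turned for 8 members, among them KMT2B (−0.37), SMARCC2 (−0.24), ARID1B (−0.22) and HDAC4 (−0.39). In the fit without length removal, KDM7A, KMT2A, KMT2C and TET1 passed the thresholds whichever single library was left out.

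**Figure D5:**
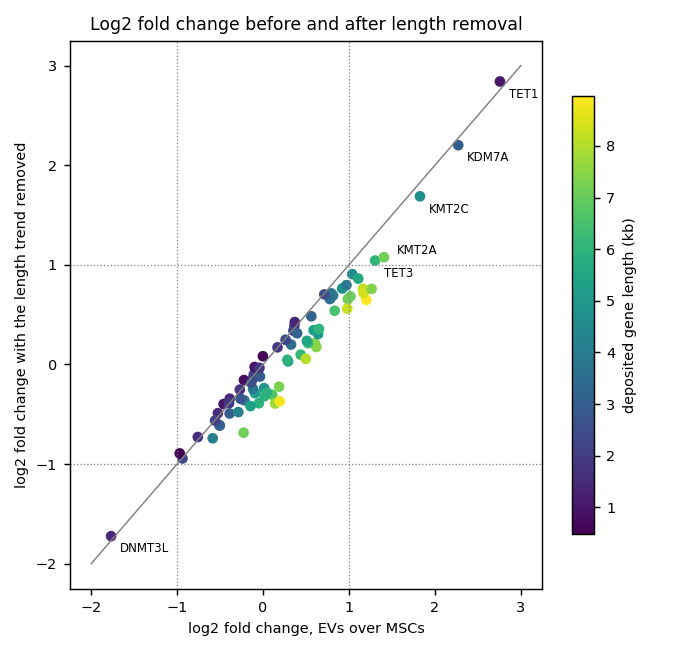
Log2 fold change of the 80 tested members before (horizontal axis) and after (vertical axis) removal of each library's length trend, coloured by deposited gene length in kb, with the line of equality and dotted lines at a fold of 2. Long genes lie below the line, and the named genes, TET1, KDM7A, KMT2C, KMT2A, TET3 and DNMT3L, stay past a 2-fold change on both axes.

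A further list of 151 chromatin genes outside these name families, among them Polycomb proteins, histone chaperones and other Jumonji proteins, had 123 entries, of which 100 were tested. It showed 10 genes higher (5.55% of all entries) and 0 lower (3.57%) in EVs at a fold above 2 and an unadjusted p below 0.05. At the adjusted p there were 0 in either direction (0.206 to 0.288 for these 10). With the length trend removed, 10 were higher (5.14% of all entries) and 1 lower (3.89%). The median was 0.08, or −0.09 with the length trend removed. Of the 10 higher without length removal, ATAD2B (2.01), JMJD1C (1.77) and RSF1 (1.74) had the largest values, with 2 to 11 reads per MSC library for RSF1. JMJD1C, a relative of KDM3A, had 599, 223 and 569 reads in the MSC libraries and 1256, 1813 and 1468 in the EV libraries, and its adjusted p was 0.0428 with the pig as a block. JARID2, an accessory subunit of Polycomb repressive complex 2, had 278, 277 and 232 reads in the MSC libraries and 548, 745 and 556 in the EV libraries (log2 fold change 1.25). BRWD1, PHC3, BAZ2B, UHRF2, GATAD2B and MSL2 made up the rest. The acetyltransferases EP300 (0.47, adjusted p = 0.346) and CREBBP (0.47, adjusted p = 0.330), which the KAT prefix does not reach, did not pass the thresholds, and were at −0.0076 and −0.062 with the length trend removed.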

How the data were processed

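The series holds 12 libraries, of which the 6 mRNA libraries (3 MSC, 3 EV) were used. The small RNA libraries were not used here. The deposited counts are reads per gene made by the authors. They are accompanied by RPKM as deposited (reads scaled by the authors to gene length and library size), which served only in an alternative, and by a gene length. The labels name stranded total RNA libraries and the methods a different TruSeq kit. The submitters' processing notes list CASAVA 1.9, TopHat, HTSeq, cutadapt 0.9.5 and Bowtie 0.12.7 with build susScr3, and the methods name featureCounts. Whether reads on overlapping entries or on a chosen strand were counted is not given in the sources used here. Of 29661 entries, 3 with shifted columns were left out. Of 25322 Ensembl identifiers, 11804 were matched to a symbol, and symbols left unmatched were not analysed here.

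Counts were fitted with edgeR 4.0.16 in R 4.3.3 (TMM factors, filterByExpr, quasi-likelihood test, no covariate) over all 12392 entries that passed the filter, with Benjamini-Hochberg adjustment. CPM are TMM-normalized, and SE is the log2 fold change divided by the square root of F. Intervals are at 95%. Reads are not independent molecules, so 3 reads, the most that a count of 0 allows (0.232 to 0.303 CPM), covers counting error only. Libraries are separate pigs. The pairing comes from the pig identifiers in the labels: deviations from group means correlated at 0.251 to 0.408 within pigs and at −0.364 to −0.0385 between pigs. Scripts were tested on simulated data. Alternatives were other normalizations and filters, DESeq2 1.42.0, limma 3.58.1 on log2(RPKM + 1) and log2(RPKM + 0.1), the pig as a block, removal of a length trend, removal of overlapped entries, and leaving out each library. Named genes were members past a threshold, members extreme within their role, the most abundant ones, and untested ones with reads. The values of 1 tested member are not reported here by name, although it counts among the 80. Other members are given where their role completes a family, chosen after their values were seen. The members and lists were chosen with earlier results of these data known.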

Additional observations from a re-analysis of the deposited data

How the results depend on the processing

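Of 539 values of 30 named genes under an alternative, 469 kept their direction and side of the thresholds, 38 lost and 15 gained their call, and 17, in 5 genes, changed sign. Over all 80 tested members and 100 other chromatin genes, length removal turned the sign of 8 and 14. With limma on log2(RPKM + 1), a scale that understates the change of low genes, 2 members, 233 entries and 2 other chromatin genes were higher and 194 entries lower, against 11, 688, 10 and 442, and 1 entry was higher and 10 lower at the adjusted p. Removing the length trend left 5 members higher and 1 other chromatin gene lower. The medians were then 0.051 for members, 0.29 for those of 6 kb or more and −0.094 for other chromatin genes. When MSC replicate 2 was also left out, tried after seeing the data, 6 members were higher, of which 4 were among the original 11. The share of all entries was not computed for that setting. With the pig as a block 2 members, 3 other chromatin genes and, at the adjusted p, 75 entries were lower and 61 higher. With the block and the length trend removed, 5 members were higher, 2 members, 684 entries and 4 other chromatin genes lower, the medians were 0.035 (members) and −0.097 (other chromatin genes), and the adjusted p called 1 member and 77 entries higher and 1 member and 120 entries lower. At the adjusted p, DESeq2 called 6 members and 228 entries higher and 1 member and 175 entries lower, with 2 other chromatin genes lower at the unadjusted p. Entries lower at the adjusted p numbered 3 with no scaling, 5 with no filter (1 other chromatin gene at the unadjusted p) and 5 with limma on log2(RPKM + 0.1). Leaving out 1 library gave 7 to 16 members higher and 1 to 2 lower, 511 to 948 entries higher and 270 to 607 lower, and 6 to 13 other chromatin genes higher and 0 to 4 lower. The sign turned for ASXL1 (−0.30 with length removed, −0.24 with block and length, −0.0089 to 0.32 without a library), CHD3 (−0.004 with relative log expression factors, −0.0094 with DESeq2, −0.32 with length, −0.30 with block and length, −0.0156 without overlapped entries, −0.19 to 0.18 without a library), KDM5C (−0.28 with length, −0.24 with block and length, −0.0126 to 0.15 without a library), and, without a library, CHD1L (−0.34 to 0.10) and HDAC5 (−0.31 to 0.22). The cause was not tested.

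With 3 libraries per group, no member reached the adjusted threshold in the unpaired edgeR fit. TET1 and HDAC9 rest on few MSC reads, and members at 0 or under overlapping entries cannot be ranked.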

Other observations

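A few chromatin genes were picked out after their values were seen, for low MSC values in pig 2. MSC replicate 2 was the lowest of the 6 libraries for 33.6% of all entries. UHRF1, which brings the maintenance methyltransferase to newly copied DNA, had 578, 55 and 558 reads in the MSC libraries and 232, 6 and 85 in the EV libraries, lowest in pig 2 in both groups. The log2 fold change was −1.77 (adjusted p = 0.435 in edgeR), and its adjusted p in the blocked fit was 0.0467. CHAF1A and CHAF1B, subunits of the chromatin assembly factor CAF-1, had 387, 97 and 385 and 157, 35 and 160 reads in MSCs, and 189, 92 and 98 and 80, 27 and 23 in EVs (log2 fold changes −1.12 and −1.38, adjusted p = 0.330 and 0.340). ATAD2 had 521, 76 and 406 reads in the MSC libraries and 198, 85 and 174 in the EV libraries. The mitotic kinase BUB1 had 217, 10 and 88 reads in the MSC libraries and 68, 4 and 46 in the EV libraries, and 3 of the 5 mitotic markers were at 0. Among the vesicle markers CD63 was at −0.53 (adjusted p = 0.435), and CD9 and ITGB1 had at most 7 reads in any library. ITGB1 had 1 read in each MSC library, so whether its entry collects the reads of the gene is uncertain. The study detected CD9, CD29 (ITGB1) and CD63 protein on the EVs by western blot, which these read counts do not address. The summed adipocyte markers were at 1.15 to 18.1 CPM in MSCs and 12.8 to 25.2 in EVs. Nearly all of these reads were on LPL, with 231, 12 and 131 in the MSC libraries and 293, 245 and 127 in the EV libraries. PLIN1 was at 0, and ADIPOQ and LEP had at most 6 reads in a library. The summed platelet markers were at 1.87 to 3.16 CPM in MSCs and 0.760 to 2.83 in EVs, all from GP9. PPBP and ITGA2B were at 0.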
